A study of Homo sapiens with 4 samples.

Results

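Type I interferons signal through a receptor of 2 chains, IFNAR1 and IFNAR2, whose kinases TYK2 and JAK1 phosphorylate STAT2. STAT2 and IRF9 are subunits of the complex ISGF3, which binds interferon-stimulated response elements (ISRE) in the promoters of antiviral genes, whereas interferon gamma acts largely through gamma-activated sites (GAS). Other interferon regulatory factors (IRFs) act beside this complex: IRF3 and IRF7 drive interferon genes, IRF1 activates and IRF2 mostly restrains ISRE-bearing genes, and SOCS1 shuts off the receptor-bound kinases.

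STAT2, IRF9, IFNAR1, IFNAR2, IRF1, IRF2, IRF3, IRF7 and SOCS1 were picked by symbol, 9 of the 19475 symbols measured, and each was represented by its most abundant listed transcript. The cells were SKOV3, an established human ovarian cancer line, with no added gene or drug named in the labels. The control group was 2 libraries of cells on tissue culture plates (TCP) at day 0, and the other group was 2 libraries of tumor spheroids grown on plates coated with polymer X, a polymer thin film, at day 8. Substrate and culture time differed together. Serum was used for routine culture and serum replacement for spheroids, and 1 growth protocol with serum replacement is attached to all 4 libraries, so the medium of the TCP cells is unclear. The study's methods give only a general minimum of independent replicates, which 2 libraries do not reach, and the labels do not say whether these came from separate cultures, so the p-values measure only the spread between these libraries.

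Levels are given as FPKM, that is, reads or read pairs (tags) per kilobase of transcript, scaled to the tags of each library, as deposited by the authors. Steps between low values placed the scaling totals between 38405000 and 44915000 tags. Replicates correlated at 0.998 on TCP and 0.997 on polymer X over the 11964 genes tested. The epithelial keratins KRT8 and KRT18, the amplified receptor gene ERBB2 and PAX8 were all present, KRT8 at 143 to 269 FPKM, while CDH1 and KRT19 stayed under 1 FPKM. KRT7 had 8.33 and 7.57 FPKM on TCP and 4.57 and 4.04 on polymer X, and EPCAM 0.168 and 0.104 against 1.39 and 1.325. KRT7, KRT8 and KRT18 were thus lower on polymer X, and ERBB2, PAX8, EPCAM, CDH1 and KRT19 higher, without overlap. The summed level of 7 leukocyte markers was 0.137 to 0.224 FPKM on TCP and 1.13 to 1.15 on polymer X. PTPRC, the pan-leukocyte marker, had 1 and 0 tags on TCP and 92 and 106 on polymer X, none of the 7 exceeded 0.530 FPKM, and CD3E was listed at 0 throughout. The summed level of 7 fibroblast and endothelial markers was 0.227 to 0.243 FPKM on TCP and 11.6 to 13.5 on polymer X. DCN and COL3A1 made up most of the sum on polymer X, the endothelial marker PECAM1 was listed at 0 on TCP and at 0.573 and 0.458 FPKM on polymer X, and PDGFRA, PDGFRB, CDH5 and VWF did not exceed 0.291 FPKM. The part of both marker lists in the results below was not tested. In bulk RNA, a change in the share of cells expressing a gene and a change in RNA per cell cannot be told apart.

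The promoters of 5 of the 9 genes were matched in RefSeq (GRCh38.p14). The last 150 bases before the start are shown for the genes whose levels are contrasted below: the ISGF3 subunits IRF9 and STAT2, then IRF1 and SOCS1. They are written 5′ to 3′ on the strand of the gene, and capitals mark a GAS match (TTCNNNGAA) or an ISRE match (GAAANNGAAA on either strand).
IRF9 (chr14:24161115-24161264, plus strand): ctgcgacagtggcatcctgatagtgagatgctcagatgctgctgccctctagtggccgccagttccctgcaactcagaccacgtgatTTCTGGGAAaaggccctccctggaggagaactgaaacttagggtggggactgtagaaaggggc
STAT2 (chr12:56360108-56360257, minus strand): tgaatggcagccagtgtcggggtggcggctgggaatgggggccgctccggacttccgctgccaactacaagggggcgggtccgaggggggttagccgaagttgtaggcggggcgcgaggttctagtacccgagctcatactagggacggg
IRF1 (chr5:132490774-132490923, minus strand): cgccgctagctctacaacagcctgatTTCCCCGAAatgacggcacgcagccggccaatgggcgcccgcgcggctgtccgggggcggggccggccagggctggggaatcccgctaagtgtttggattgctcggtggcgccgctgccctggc
SOCS1 (chr16:11256205-11256354, minus strand): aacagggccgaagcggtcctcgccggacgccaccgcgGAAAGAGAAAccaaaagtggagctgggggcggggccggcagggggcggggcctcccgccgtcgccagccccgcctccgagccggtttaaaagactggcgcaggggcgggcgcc

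The GAS match of IRF9 began 63 bases before the start and that of IRF1 began 124 bases before it, and the ISRE match of SOCS1 began at 113. No match to either motif lay in the 300-base windows of STAT2 and IFNAR1, which says only that these letters are not there. IRF2, IRF3, IRF7 and IFNAR2 were not matched.

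Transcripts of the ISGF3 subunits IRF9 and STAT2 and of IRF7 were more abundant on polymer X, by 3.72 to 5.05 times. SOCS1 was 3.45 times higher but from a low level, whereas the remaining genes moved less and IRF1 was slightly lower. Calls required an adjusted p under 0.05 (limma on log2(FPKM + 1), Benjamini-Hochberg over all genes tested) together with a log2 fold change of at least 1 in size. Of the 9 genes, 3 were called higher and 0 lower, where 10.7% of all tested genes were called higher and 9.45% lower. All 9 had an adjusted p under 0.05, which was also true of 81.0% of all tested genes, so the size of a change is given beside each p. In 8 of the 9, both polymer X libraries lay above both TCP libraries, against 41.9% of tested genes. The median log2 fold change of the 9 was 0.56, and that of all tested genes was -0.06. SOCS1 passed the filter on low values only through its polymer X libraries.

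IRF9, the DNA-binding subunit that gives ISGF3 its ISRE specificity (NM_006084, hg19 chromosome 14, 24630422 to 24635774), was at 4.83 and 4.63 FPKM in the TCP libraries and at 24.0 and 23.8 FPKM on polymer X. The groups lay far apart and the replicates nearly coincided. The mean rose from 4.73 ± 0.136 to 23.9 ± 0.138 FPKM (SD, n = 2), a 5.05-fold difference and a log2 fold change of 2.12 (standard error, SE, 0.06, limma adjusted p = 4.7e-09). This rise was larger than that of 98.0% of the tested genes.

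STAT2, the subunit that carries the transactivation domain of ISGF3 (NM_005419, chromosome 12, 56735382 to 56754037), stood at 5.64 and 5.83 FPKM on TCP and at 23.8 and 22.5 FPKM on polymer X. Again neither polymer X library came near the TCP range. The means were 5.73 ± 0.136 and 23.2 ± 0.916 FPKM (SD, n = 2), with a log2 fold change of 1.85 (SE 0.06, limma adjusted p = 1.1e-08). These values rested on 979 to 4317 tags per library, and both listed STAT2 transcripts gave 1.85.

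The ratio of IRF9 to STAT2 was 0.857 and 0.795 on TCP and 1.01 and 1.06 on polymer X. IRF9 was thus the lower of the pair on TCP and nearly level with STAT2 on polymer X.

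**Figure D1:**
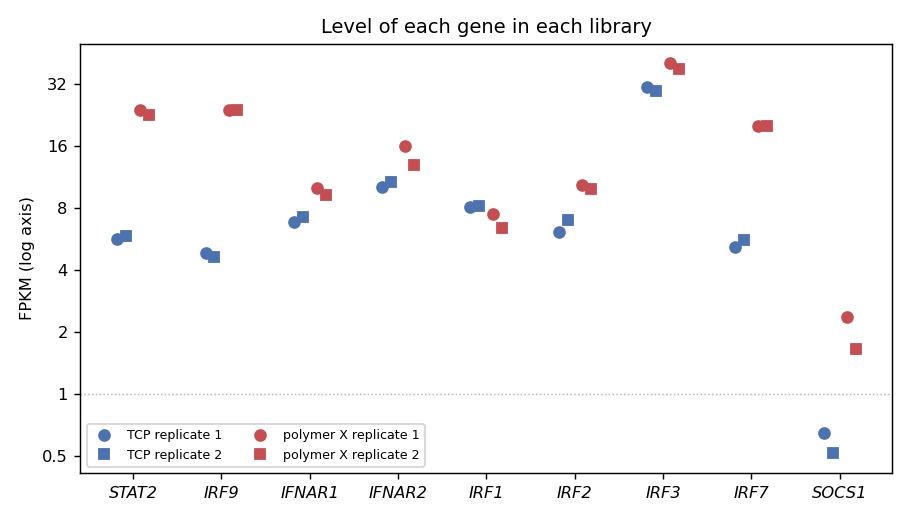
FPKM of each of the 9 genes (log axis) in the 2 TCP libraries (blue) and the 2 polymer X libraries (red), 1 point per library, with a dotted line at 1 FPKM. STAT2, IRF9 and IRF7 sit near 5 FPKM on TCP and at 20.0 to 24.0 on polymer X, and IRF1 is the only gene whose polymer X points lie below its TCP points.

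Receptor transcripts were moderately higher on polymer X. IFNAR1, the low-affinity chain that binds TYK2 (NM_000629, chromosome 21, 34697214 to 34732128), was at 6.80 and 7.24 FPKM on TCP and at 10.0 and 9.27 FPKM on polymer X, without overlap. Its log2 fold change of 0.41 (SE 0.07, limma adjusted p = 0.00042) was under the minimum for a call. IFNAR2, the high-affinity chain that binds JAK1 (NM_207584, chromosome 21, 34602200 to 34635062), was at 10.1 and 10.7 FPKM on TCP and at 15.9 and 12.9 FPKM on polymer X. The polymer X libraries were uneven here, with the lower of them close to the TCP range, and the log2 fold change was 0.43 (SE 0.09, limma adjusted p = 0.0015). Over the 6 listed IFNAR2 transcripts, which share tags, the log2 fold change lay between 0.42 and 0.51. The ratio of IFNAR2 to IFNAR1 was 1.48 and 1.47 on TCP and 1.58 and 1.40 on polymer X, so the balance of the 2 chains overlapped between the groups.

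The kinases and the other receptors fixed as partners did not share 1 direction. JAK1 had 54.4 and 55.8 FPKM on TCP and 28.1 and 26.4 on polymer X, with a log2 fold change of -0.99 (adjusted p = 2.8e-07 from limma) just short of a call. JAK2, the kinase of the interferon gamma receptor, was at 1.53 and 1.48 against 1.04 and 1.03 FPKM, with a log2 fold change of -0.30 (adjusted p = 0.0059 from limma). TYK2 had 11.3 and 11.5 FPKM on TCP against 11.6 and 11.5, and its log2 fold change of 0.02 had an interval of -0.12 to 0.15. Unlike the kinases, the interferon gamma receptor genes IFNGR1 and IFNGR2 and the shared lambda and interleukin-10 receptor gene IL10RB were higher on polymer X without overlap, at log2 fold changes of 0.31, 0.67 and 0.60. IFNLR1, the specific chain of the lambda receptor, was listed at 0 in all 4 libraries. Of these 7 partners, 6 were tested and 0 called, where 10.7% of all tested genes were called higher and 9.45% lower. With limma, 3 were higher and 2 lower at an adjusted p under 0.05. That threshold was passed by 81.0% of all tested genes in either direction, so these counts do not set the partners apart.

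**Figure D2:**
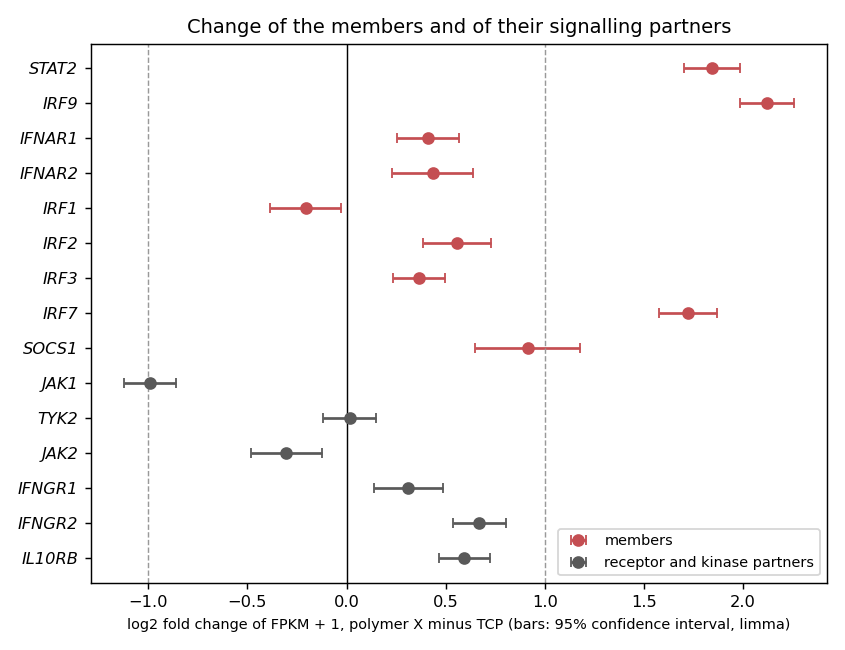
Log2 fold change of FPKM + 1, polymer X minus TCP, with the 95% confidence interval from limma, for the 9 genes (red) and the 6 tested partners (grey); dashed lines mark the minimum of 1 for a call. IRF9, STAT2 and IRF7 lie wholly above 1, the interval of TYK2 spans 0, and JAK1 lies at -0.99.

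Among the IRFs, IRF7 stood apart. IRF7, which amplifies interferon alpha transcription (NM_004029, chromosome 11, 612555 to 615999), was at 5.16 and 5.60 FPKM on TCP and at 20.0 and 20.1 FPKM on polymer X. The mean rose from 5.38 ± 0.312 to 20.0 ± 0.0792 FPKM (SD, n = 2), a log2 fold change of 1.72 (SE 0.06, limma adjusted p = 1.8e-08). All 3 listed IRF7 transcripts gave values between 1.71 and 1.72.

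IRF3, the constitutive factor activated by phosphorylation (NM_001197125, chromosome 19, 50162826 to 50169132), was the most abundant of the 9 genes in both groups. Its level was 30.8 and 29.5 FPKM on TCP and 40.2 and 38.0 on polymer X, which gave a log2 fold change of 0.37 (SE 0.06, limma adjusted p = 0.00028). Over its 8 listed transcripts the log2 fold change was 0.36 to 0.49, and under quantile normalization it was 0.63. The span of IRF3 overlaps that of BCL2L12 on the opposite strand by 734 bases, and tags were counted without strand. BCL2L12 was lower on polymer X, at 17.4 and 16.9 against 12.2 and 12.2 FPKM, and the share of its tags in the IRF3 value was not tested. The ratio of IRF7 to IRF3 was 0.168 and 0.190 on TCP and 0.497 and 0.529 on polymer X.

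IRF1 and IRF2, which recognise the same DNA element, moved apart. IRF1 (NM_002198, chromosome 5, 131817301 to 131826465) was at 8.07 and 8.15 FPKM on TCP and at 7.47 and 6.37 FPKM on polymer X. The polymer X libraries were both lower, although they differed more from each other than 1 of them did from TCP. The log2 fold change was -0.21 (SE 0.08, limma adjusted p = 0.037). It was -0.11 without polymer X replicate 2 and -0.31 without polymer X replicate 1, and -0.21 and -0.20 without TCP replicates 1 and 2. The limma adjusted p was 0.060 with libraries scaled to a common median and 0.086 with no filter on low values. It was 0.016 with the replicate number as a block, and at most 0.047 under the other alternatives that kept all libraries. IRF2 (NM_002199, chromosome 4, 185308876 to 185395726) was at 6.14 and 7.02 FPKM on TCP and at 10.4 and 9.88 on polymer X, which gave a log2 fold change of 0.56 (SE 0.08, limma adjusted p = 9.4e-05). IRF2 was thus less abundant than IRF1 on TCP, with ratios of 0.760 and 0.861, and more abundant on polymer X, with ratios of 1.39 and 1.55.

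SOCS1, the inhibitor of the JAK kinases (NM_003745, chromosome 16, 11348274 to 11350039), was the least abundant, at 0.645 and 0.514 FPKM on TCP and at 2.35 and 1.64 FPKM on polymer X. Those levels came from 30 and 28 tags on TCP and 114 and 81 tags on polymer X. The 95% exact Poisson intervals, which cover counting error only, were 0.342 to 0.921 FPKM over the TCP libraries and 1.30 to 2.82 FPKM over the polymer X libraries. The level was thus 3.45-fold higher, but the log2 fold change on the scale of FPKM + 1, which shrinks low genes, was 0.91 (SE 0.12, limma adjusted p = 6.3e-05) and missed the call. It was 1.61 with a pseudocount of 0.1 and 1.09 without polymer X replicate 2, and both would have been called, whereas quantile normalization gave 0.48.

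**Figure D3:**
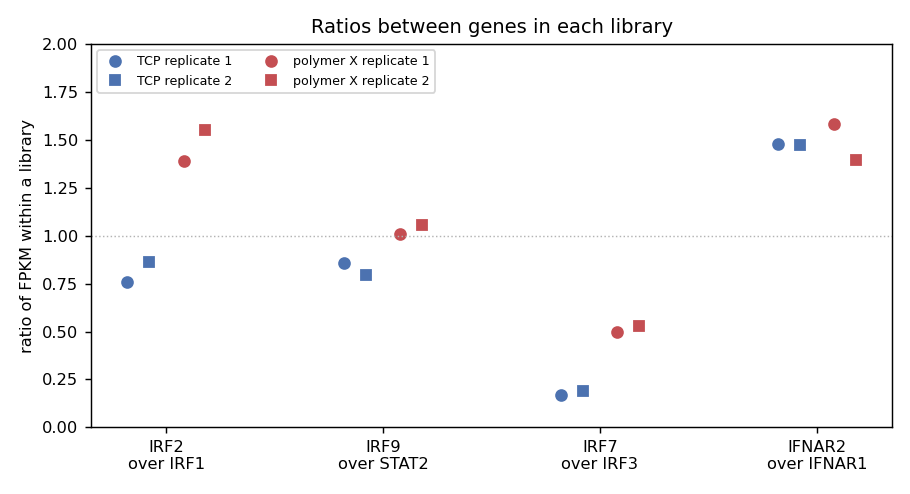
Ratio of FPKM between 2 genes within each library, 1 point per library, TCP in blue and polymer X in red, on an axis that starts at 0. The ratios of IRF9 to STAT2, of IRF7 to IRF3 and of IRF2 to IRF1 are all higher in both polymer X libraries, and that of IFNAR2 to IFNAR1 overlaps.

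The order of the levels changed between the groups. On TCP it ran from IRF3 through IFNAR2, IRF1, IFNAR1, IRF2, STAT2, IRF7 and IRF9 to SOCS1. There, IFNAR1 and IRF2 overlapped across libraries and the other neighbours did not. On polymer X it ran from IRF3 through IRF9, STAT2, IRF7, IFNAR2, IRF2, IFNAR1 and IRF1 to SOCS1, with overlaps between IRF9 and STAT2 and between IRF2 and IFNAR1. IRF9 moved from place 8 to place 2, and IRF1 from place 3 to place 8.

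Interferon genes themselves were almost undetected. Of 21 ligand genes, 17 were listed at 0 in all libraries, IFNB1 and IFNG among them, and 3 tags would correspond to 0.0649 to 0.138 FPKM for these transcripts. IFNA1 had 2 and 3 tags on TCP and 10 and 6 on polymer X, and reads of interferon alpha genes can be shared between near-identical copies. IFNE, interferon epsilon of the female reproductive tract, which also binds IFNAR1 and IFNAR2, was the exception. It rose from 1.04 and 0.817 FPKM to 4.42 and 4.38, a log2 fold change of 1.49 (adjusted p = 2.7e-07 from limma), and like SOCS1 it passed the filter on low values only through polymer X.

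Genes known to be driven by ISGF3 were mostly higher. Of the 44 listed, 42 were tested, 31 were called higher and 0 lower, where 10.7% and 9.45% of all tested genes were. The median log2 fold change was 1.61, against -0.06 over all tested genes. For 17 of the 42, a TCP library was under 1 FPKM, so that these passed the filter only with a polymer X library. All of these were called higher, and they count in the 31 and in the median. IFITM1, OAS1, RSAD2, IFI44L, OAS2, OASL, ISG20 and MX2, named below, are among them. Among the 25 with at least 1 FPKM in both TCP libraries, a subset chosen after the data were seen, 14 were called higher, where the share among all such genes was 7.68%. IFITM1 (log2 fold change 6.14), IFI27 (5.61), IFI6 (4.64) and OAS1 (4.39), which encode antiviral effectors, had the largest log2 fold changes on the FPKM + 1 scale, although IFITM1 shares sequence with its paralogs. That scale shrinks genes that were low on TCP. By the ratio of mean FPKM, IFI44L (178-fold) and OAS2 (63.9-fold), named after their values were seen, exceeded IFI6 (28.5-fold). IFI6 rose from 7.44 and 5.80 FPKM to 200.3 and 177. Named after their values were seen, EIF2AK2 and ADAR were lower (limma adjusted p = 2.4e-05 and 0.022) at log2 fold changes of -0.55 and -0.17, and HERC5 had -0.05.

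Some of the genes driven by interferon gamma and IRF1 were also higher. Of the 26 listed, 14 were tested, 6 were called higher and 0 lower, where 10.7% and 9.45% of all tested genes were, and the median log2 fold change was 0.89. The entries kept for HLA-DRA, HLA-E, PSMB8, PSMB9, TAP1 and TAP2 lie on alternative haplotype copies of chromosome 6. HLA-E, at 0.010 to 0.120 FPKM, HLA-DRA and PSMB9 were among the untested. How far reads shared between such copies lowered these levels was not tested. Of the 9 with at least 1 FPKM in both TCP libraries, 3 were called higher, where the share of all such genes was 7.68%. IDO1, which degrades tryptophan, rose from 10.4 and 8.10 to 66.0 and 60.2 FPKM. GBP5, HLA-F and ICAM1 had log2 fold changes of 2.47, 2.41 and 2.37. On TCP, GBP5 was at 0.550 and 0.385 FPKM and ICAM1 at 0.475 and 0.330. Both belong to 5 of the 14 tested genes with a TCP library under 1 FPKM. These passed the filter only with a polymer X library. The chemokine genes CXCL9, CXCL10 and CXCL11, induced by interferon gamma in many cells, were at or under 0.232 FPKM in every library. CXCL10 and CXCL11 had 0 tags on TCP and 11 to 15 per library on polymer X, and CXCL9 had none in any library.

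Promoter windows were searched for both motifs, from 250 bases before to 50 after the start. The ISRE letters were in 3.65% of 27305 promoters and the GAS letters in 7.94%. Of the 37 ISGF3 targets with a sequence, 26 (70.3%) held the ISRE letters, and so did 12 of 16 of the targets of interferon gamma and IRF1. Among the 5 promoters of the 9 genes, 1 held the ISRE letters and 2 the GAS letters. Both lists were written from knowledge of interferon targets, for which such elements are a known feature. Of the 4 targets with the largest log2 fold changes of FPKM + 1, the OAS1 window held the GAS letters only. That says only that the ISRE letters as written here are not there. For the other 3, the upstream ISRE match nearest the start is shown in capitals, on the strand of the gene.
IFITM1 (chr11:313990-314019, plus strand): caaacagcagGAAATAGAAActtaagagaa
IFI27 (chr14:94110631-94110660, plus strand): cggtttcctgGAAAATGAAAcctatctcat
IFI6 (chr1:27672266-27672295, minus strand): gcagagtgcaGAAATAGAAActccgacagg

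**Figure D4:**
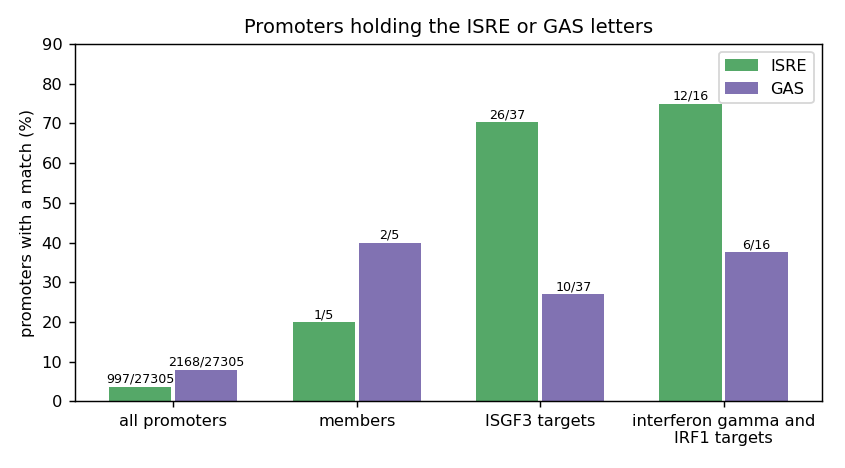
Percent of RefSeq promoter windows of 300 bases that hold the ISRE or GAS letters, with counts above the bars, for all promoters, for the 5 of the 9 genes with a sequence, and for both lists of interferon targets. The ISRE bars of both target lists reach 70.3% and 75%, against 3.65% of all promoters.

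Regulators around the 9 genes did not move as 1 group. Of the 11 activators of IRF3 and IRF7, 1 was called higher and 1 lower, where 10.7% and 9.45% of all tested genes were. These counts are near those shares and do not set the list apart. TMEM173, the adaptor STING that activates IRF3, rose from 7.82 and 7.49 to 25.9 and 25.1 FPKM, and IRAK1, the kinase upstream of IRF7 in Toll-like receptor signalling, fell from 88.9 and 90.1 to 24.4 and 24.8 FPKM. TBK1, which phosphorylates IRF3, was at 11.0 and 10.2 against 10.4 and 10.0 FPKM, with overlapping groups. Of the 16 other inhibitors, 15 were tested, and SOCS3 was called higher (1.05) and PTPN11 lower (-1.24), beside the same shares of all tested genes. USP18, which blocks IFNAR2 and was named after its values were seen, lay just under the call at 0.99. IRF5 was at 2.05 and 2.26 against 2.92 and 2.08 FPKM, with overlapping groups. IRF4 had 0 tags in both TCP libraries and 42 and 38 on polymer X, at most 0.197 FPKM, and IRF8 was listed at 0 throughout. IRF2BP2 and IRF2BPL, genes of the IRF2-binding co-repressor family, were higher at log2 fold changes of 0.85 and 0.86, also under the minimum, and their relative IRF2BP1 had 0.09 (adjusted p = 0.26 from limma) with overlapping groups.

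**Figure D5:**
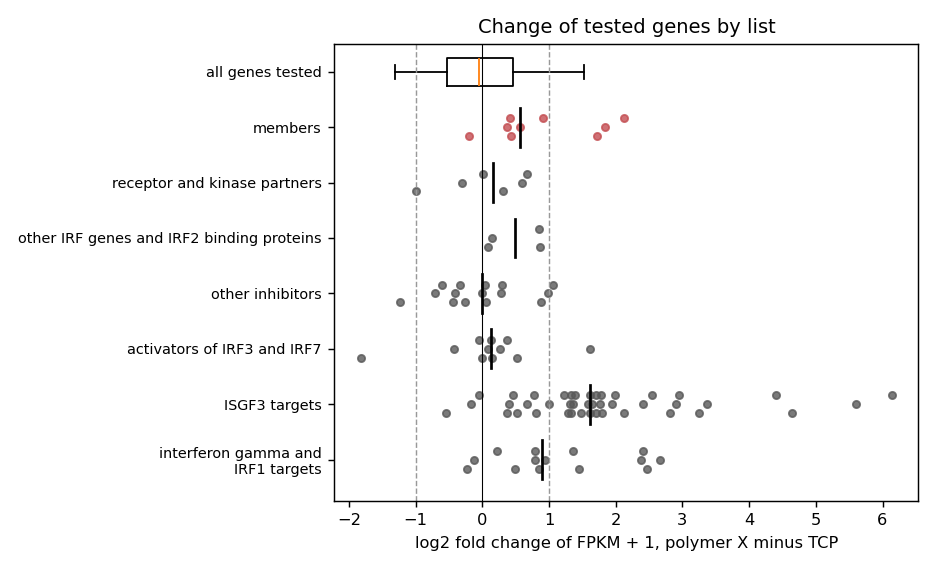
Log2 fold change of FPKM + 1, polymer X minus TCP, of each tested gene (points) by list, with black bars at the medians and a box of all tested genes (quartiles, with whiskers at the 5th and 95th percentiles); dashed lines mark the minimum for a call. The points of the ISGF3 targets centre on 1.61, and those of the inhibitors and activators lie on both sides of 0.

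Over the 4 libraries, the tested genes whose centred log2(FPKM + 1) values lay closest to those of IRF9 were GRN, IGIP and EPAS1, with root mean square differences of 0.013, 0.024 and 0.025. Those closest to STAT2 were AXIN2, ARSD and CCNG2, at 0.0036, 0.012 and 0.014. With 2 groups of 2 libraries, such closeness reflects mainly a similar difference between the groups.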

How the data were processed

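RNA-seq libraries of SKOV3 cells on TCP and of spheroids on polymer X were used, 2 each. The authors deposited FPKM values for 50078 RefSeq transcripts of hg19, from HOMER counts of tags on exons of both strands. The submitters' processing notes also name STAR 2.4.0 and DESeq; the HOMER version and read trimming are not given in the sources used here. Transcripts of 1 gene share tags. The transcript with the highest mean was kept per symbol, genes with at least 1 FPKM in at least 2 libraries were kept, and log2(FPKM + 1) was tested with limma 3.58.1 (R 4.3.3, variance trend, no block). Depth was taken from the steps between low values, and every value used came to whole tags (tolerance 0.1). Groups came from sample titles. Some genes of the pathway are not reported here. An exact permutation test of 2 against 2 cannot go below 0.333, so each p rests on the spread pooled over genes. The genes, lists and tests were chosen with earlier results of these data known. All 9 genes were named, with all partners and up to 4 called genes per direction of each other list, and, for IRF9 and STAT2, the 3 genes with the closest pattern. Further genes were named outside this rule, among them CXCL9, CXCL10, CXCL11, TBK1, IRF4, IRF5, IRF8, IRF2BP1, IRF2BP2 and IRF2BPL. On simulated data with 200 of 11714 genes changed by 1.5 (log2), all 200 had a limma adjusted p under 0.05 in the right direction. Of these, 172 were called, and 0 of the unchanged genes were called. The uncalled changed genes had low FPKM, where the pseudocount shrinks the fold change below 1. Replicate spread was set to 1 small value for every gene, and far fewer genes changed than the 81.0% in the data. The 0 therefore says little about false calls in these libraries. Alternatives were another pseudocount, filters, scalings, summed transcripts, no trend, a block, other fold minimums and each library left out.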

Additional observations from a re-analysis of the deposited data

How the results depend on the processing

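The 9 fold changes kept their direction under every alternative run, and 8 of them kept their side of the call under those that left the fold minimum at 1. SOCS1 was called with a pseudocount of 0.1 (1.61), and with each library left out its log2 fold change lay between 0.74 and 1.09, called without polymer X replicate 2; it was not tested at a mean FPKM of at least 5. Leaving out a library leaves 1 in a group, which is then assumed to vary like the other group. With no fold minimum, 8 of the 9 genes were higher and 1 lower, beside 4477 and 5212 of all genes, and at a log2 minimum of 2 only IRF9 was called (1), beside 281 and 150. At a minimum of 2, 12 ISGF3 targets were called, and with none 12 of the targets of interferon gamma and IRF1. With the filter raised to a mean of 5 FPKM, which tests fewer genes, 702 genes, 18 ISGF3 targets and 3 targets of interferon gamma and IRF1 were higher. The pseudocount of 0.1 gave 10 of the latter, while higher calls over all genes went from 1285 to 1837. The genes with at least 1 FPKM in both TCP libraries (chosen after seeing the data) gave 14 and 3, beside 848 of all such genes. With the replicate number as a block, fold changes were the same (2.12 for IRF9) and 3 of the 9 genes were called; deviations from the group means correlated at 0.093 between libraries with the same number, so no pairing was assumed. Scaling to a common median gave 56.3% higher calls against 53.2%. Depth limits SOCS1 and the interferon ligands.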
